A study of Mus musculus with 8 samples.

Results

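Tdg, its pseudogene Tdg-ps2 and 8 other genes of DNA glycosylases were read in the RNA of cultured mouse neurons that lack NUAK1, a kinase related to AMPK, and of wild type neurons. These 10 genes were rows of a table of 32726 gene identifiers, of which 16272 passed the filter on low counts, and all 10 passed it. Tdg and Tdg-ps2 were chosen on their difference between genotypes in these same libraries, so their values are a description and carry no test. Tdg-ps2 passed the filter through the KO libraries alone. The other 8 members, Ung, Smug1, Mbd4, Mutyh, Ogg1, Neil1, Nthl1 and Mpg, were named for their function. Another annotated copy of Tdg, Tdg-ps, was added because of its annotation, and Neil2 and Neil3 complete the DNA glycosylases that were read.

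Poly-A RNA was read in 8 libraries, of which 4 came from Nuak1 knockout (KO) cultures and 4 from wild type (WT) ones, and each carries its labelled replicate number. The neurons came from embryos and grew for 5 days in serum-free medium. The methods give 4 animals a condition, as many as there are libraries, but the labels do not tie libraries to animals. The p-values measure only the spread between these libraries. The labels name cortex or hippocampus as the tissue, without saying which for any library. The study describes a constitutive Nuak1 KO line, genotyped by a LacZ band, and mice kept on a C57Bl/6JRj background, and the labels give no further allele. Lane A of the sequencer held KO1, KO4, WT1 and WT3, and lane B held KO2, KO3, WT2 and WT4. An unexplained strain label reads BJ in KO1, KO2 and KO3, BK in KO4, WT2 and WT4, BO in WT1 and BQ in WT3, so that strain label and genotype can be separated only within BK.

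DNA glycosylases start base excision repair by cutting a damaged or misplaced base from the sugar of DNA, after which an endonuclease, a polymerase and a ligase restore the strand. TDG, thymine DNA glycosylase, removes thymine or uracil opposite guanine. It also removes some of the oxidised cytosines that TET enzymes make from 5-methylcytosine, which makes it part of active DNA demethylation. A processed pseudogene is a copy of a messenger RNA that was inserted elsewhere in the genome. Such a copy lacks introns and at first has the same sequence as its parent, so that short reads from either can be hard to place.

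Tdg lies at chr10:82629814-82650799 on GRCm38.p6, and Tdg-ps2, which RefSeq lists as a transcribed pseudogene, at chr10:42052558-42055453, 40.6 Mb away on the same chromosome. Nuak1 is also on that chromosome, at chr10:84370900-84440668, 1.72 Mb from Tdg and 42.3 Mb from Tdg-ps2. Tdg-ps lies at chr15:82516295-82519242 and is classed as protein coding in RefSeq. The other members are each on another chromosome than 10.

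The Tdg transcript of 2959 bases, with its coding sequence at bases 162 to 1355, was compared by BLAST with the NCBIM37 genome, an older build than the one the reads were aligned to. The copy at Tdg-ps2 matched 99.3% over 2916 aligned bases, with 19 mismatches, of which 9 were in the coding sequence. The copy at Tdg-ps matched 98.8% over 2848 bases, with 35 mismatches. Another full copy was found on chromosome 7, with 99.3% identity over 2805 bases and no gene annotated there, and a partial one on chromosome 19 inside Lipo1, with 99.6% identity over 1254 bases and 99.4% over 508. The longest run of Tdg without a difference was 756 bases for Tdg-ps2, from base 260 to base 1015, and 364 bases for Tdg-ps.

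The coding stretch with the densest differences between Tdg and Tdg-ps2 is printed to show how little separates the transcripts. It covers bases 1204 to 1283 of the Tdg transcript, counted from 1 at its 5′ end, and the capitals mark the 4 bases at which Tdg-ps2 differs, T1217C, G1245A, A1251G and G1262A (the Tdg base first).
Tdg bases 1204 to 1283: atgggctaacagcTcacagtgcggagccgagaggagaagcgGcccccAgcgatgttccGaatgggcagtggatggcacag

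For Tdg-ps an aligned pair of stretches is printed from the transcripts of both genes. The capitals mark C1091T, T1106A, G1137A and T1154C, in which the Tdg base again comes first. T1154C is shared by Tdg-ps2.
Tdg bases 1082 to 1161: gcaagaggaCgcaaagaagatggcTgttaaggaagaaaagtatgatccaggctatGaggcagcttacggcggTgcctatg
Tdg-ps bases 1031 to 1110: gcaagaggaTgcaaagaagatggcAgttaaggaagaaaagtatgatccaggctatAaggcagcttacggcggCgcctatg

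Only 2 positions of Tdg differed from every copy aligned there, base 259 in the coding sequence (A259C or A259T, 3 copies) and base 2509 in the 3′ UTR (C2509T, 4 copies). The stretch around base 259 is printed because it is 1 of 4 places from which a read of 50 bases could be told from all copies, with the base itself in capitals.
Tdg bases 229 to 289: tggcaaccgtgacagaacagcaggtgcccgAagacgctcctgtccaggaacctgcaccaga

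Of the 2910 windows of 50 bases in the Tdg transcript, 2188 (75.2%) were found unchanged in Tdg-ps2, 1585 (54.5%) in Tdg-ps and 2729 (93.8%) in at least 1 copy. The 181 windows (6.22%) found in no copy started at bases 210 to 259, 1105 to 1154, 1471 to 1501 and 2460 to 2509. With windows of 100 bases, 512 of 2860 (17.9%) were in no copy. For Tdg-ps2 the windows found neither in Tdg nor in another copy made up 12.5% at 50 bases and 27.3% at 100 bases. For Tdg-ps they made up 34.5% and 57.9%. The counting kept only uniquely aligned reads, so the counts of each row depend on its share of such windows. Tdg can also gain reads from exon sequence outside this transcript, and how reads across its splice junctions were placed is not known. For Tdg-ps2 the windows cover 2916 aligned bases, more than its exon length of 1242 bases in GENCODE M1. The share in the counted part of Tdg-ps2 can therefore differ. The labels give paired reads of 100 bases and the study's methods single reads of 50, so the windows are given for both lengths. A pair is placed by both of its reads, which single windows do not cover.

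**Figure D1:**
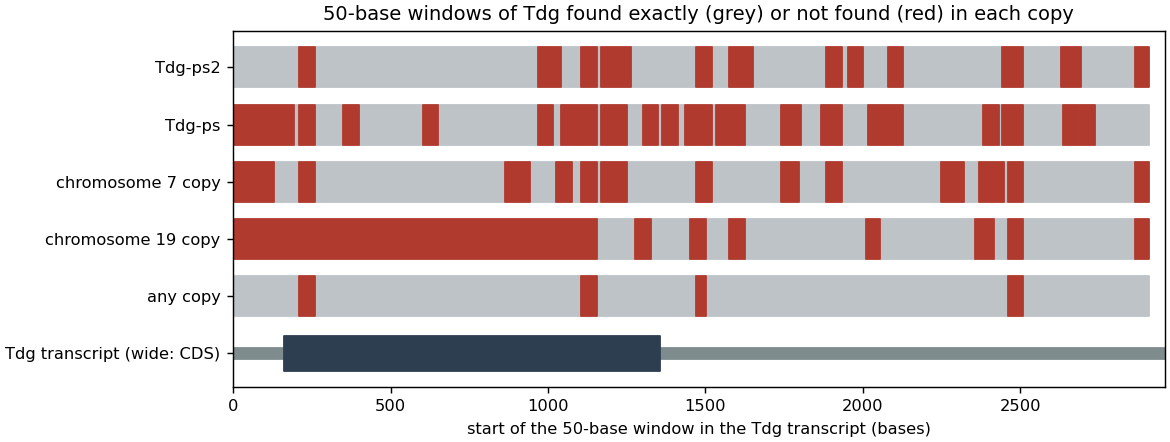
Start positions along the Tdg transcript (x axis, in bases) of 50-base windows that were found unchanged in each copy (grey) or not found (red), with the coding sequence drawn wide at the bottom. The row for any copy is red at only 4 places, the 181 windows particular to Tdg among the sequences compared.

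Nuak1, the targeted gene, matched the labels in every library. It had 86 to 102 counts in KO and 1612 to 4598 in WT, which is 2.37 ± 0.317 (SD, n = 4) and 69.5 ± 13.2 CPM, that is counts scaled to a library total of 1000000. Its log2 fold change, KO over WT in all that follows, was −4.89 with a standard error of 0.13, and its adjusted p was 1.24e-07 in the quasi-likelihood test of edgeR with Benjamini-Hochberg adjustment, the test used throughout. Total counts ranged from 31247078 to 67155004. KO1 and WT1, both on lane A, stood apart from the rest on the first principal component (−27.6 and −28.4, against 0.0733 to 22.6 for the others).

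Tdg had fewer counts in KO. The KO libraries held 105, 79, 126 and 86 counts in replicate order and the WT libraries 255, 543, 384 and 348. Scaled to the library totals, these were 3.02, 2.28, 2.42 and 2.13 CPM in KO and 8.16, 8.09, 8.06 and 9.16 CPM in WT. Every KO library lay below every WT library, and the gap between the genotypes, from 3.02 to 8.06 CPM, was wider than the range within either. The mean of KO was 2.46 ± 0.390 CPM and that of WT 8.37 ± 0.532 CPM (SD, n = 4), and the fitted log2 fold change was −1.82 (SE 0.13). It was −1.68 within lane A and −1.93 within lane B.

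Tdg-ps2 showed the reverse. It had 169, 266, 392 and 357 counts in the KO libraries and 0 in each of the 4 WT libraries. In CPM these were 4.86, 7.69, 7.52 and 8.82, a mean of 7.22 ± 1.68 (SD, n = 4), with KO1 the lowest. In WT a count of 0 allows up to 3 counts, or 0.0447 to 0.0960 CPM by library, and against the mean of these 4 floors the mean of KO was at least 102-fold higher. The bound was 86.1 within lane A and 123 within lane B. The strain label BJ of KO1 to KO3 was found in no WT library. Of the 3 libraries with the label BK, KO4 had 357 counts of Tdg-ps2 and WT2 and WT4 had 0. The part of the strain label in this difference was not tested within BK, which holds 1 KO library.

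Tdg-ps had few counts and did not pass the filter. It had 0, 0, 1 and 0 counts in KO and 5, 13, 11 and 9 in WT. The pooled rate in KO was 0.0299 times that in WT, with an exact 95% interval from 0.00074 to 0.177 that covers counting error only. The row of Tdg-ps was thus lower in KO, as that of Tdg was, whereas that of Tdg-ps2 was higher. Whether reads of Tdg are among the counts of Tdg-ps was not tested. In a fit without a filter the adjusted p of Tdg-ps was 0.0171 (edgeR, 31257 genes tested).

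Both selected rows were past the adjusted threshold of 0.05 over all tested genes, and this is how they came to be chosen. Among all tested genes 8 of 16272 genes (0.0492%) were past it. With the strain label as a term, or with lane A alone, neither row was past it, and the log2 fold change of Tdg was then −2.03 and −1.68. Within the label BK, Tdg had 2.13 CPM in KO4 and 8.09 and 9.16 CPM in WT2 and WT4.

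**Figure D2:**
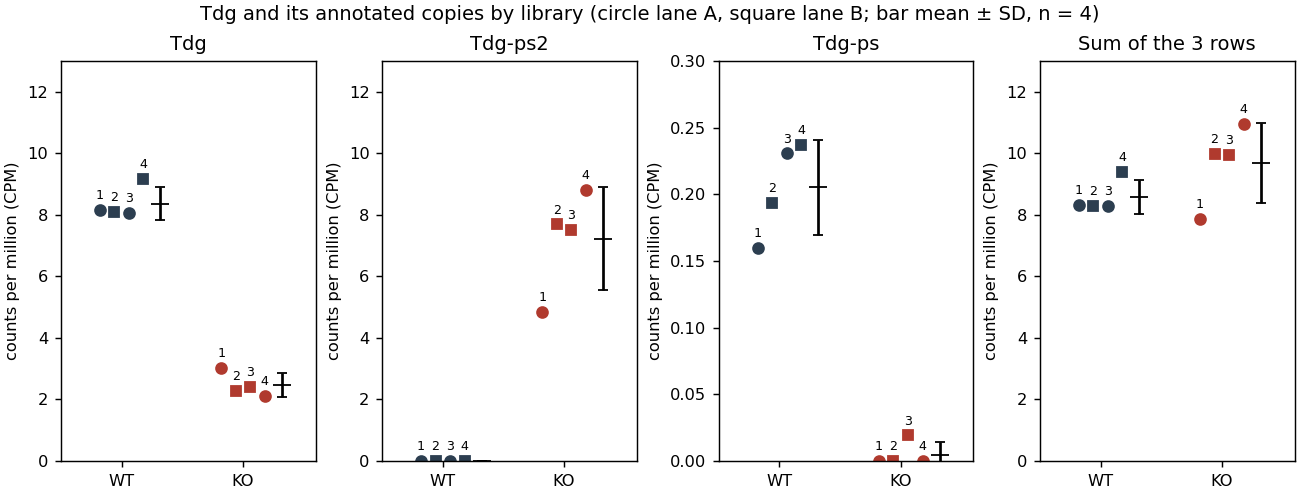
CPM (y axis) of Tdg, Tdg-ps2, Tdg-ps and their sum in each WT and KO library (digits, replicate numbers), with lane A as circles, lane B as squares and the mean ± SD of 4 libraries beside them. Tdg and Tdg-ps lie lower in KO and Tdg-ps2 higher, while the sum overlaps between genotypes, and the Tdg-ps panel has its own scale up to 0.3 CPM.

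Since most of their sequence is shared, the counts of the 3 rows were summed. No row could be assigned to the copies on chromosomes 7 and 19, which are not in the sum. The share of 50-base windows found in no other of these sequences was 6.22% for Tdg, 12.5% for Tdg-ps2 and 34.5% for Tdg-ps. The sum therefore describes placed reads and is no total of Tdg RNA. The sum was 7.88, 9.97, 9.96 and 10.95 CPM in KO and 8.32, 8.28, 8.29 and 9.40 CPM in WT. KO1 lay below all WT libraries and the other KO libraries above all of them, so the genotypes overlapped. Its mean was 9.69 ± 1.29 CPM for KO and 8.57 ± 0.552 CPM for WT (SD, n = 4), a difference of 1.12 CPM and a log2 ratio of 0.18. That difference is smaller than the SD between the KO libraries, and no test was made, since the sum rests on the rows chosen for their difference. On lane A the log2 ratio was 0.18, on lane B it was 0.17, and it was 0.21 for Tdg and Tdg-ps2 alone.

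Within the sum the rows had different shares. In WT, Tdg held 97.2% to 98.1% of the summed counts and Tdg-ps 1.92% to 2.79%. Tdg-ps2 was at 0 of 260 to 556 summed counts, which allows a share of up to 0.540% to 1.15%. In KO, Tdg-ps2 held 61.7% in KO1 (95% Wilson interval 55.8% to 67.2%), 77.1% in KO2 (72.4% to 81.2%), 75.5% in KO3 (71.7% to 79.0%) and 80.6% in KO4 (76.7% to 84.0%). KO1 was thus lower than the other 3 KO libraries, and its interval did not meet theirs. These intervals cover counting error only and not the spread between cultures. Tdg held the rest, 19.4% to 38.3%, apart from the single count of Tdg-ps in KO3. The number of reads of the shared sequence that were discarded is not known, so these are shares of placed reads and not of transcripts.

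**Figure D3:**
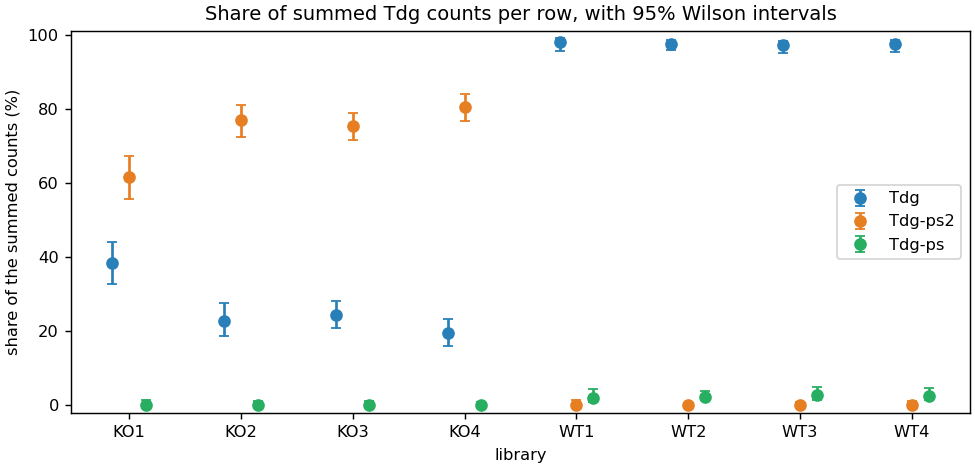
Share (y axis, percent) of the summed counts that fell in Tdg, Tdg-ps2 and Tdg-ps in each library, with 95% Wilson intervals as bars. Tdg holds over 97% in the 4 WT libraries, and in the 4 KO libraries Tdg-ps2 holds 61.7% to 80.6%.

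Tdg overlaps Glt8d2, which encodes a glycosyltransferase-like protein, by 369 bases at its 3′ end on the opposite strand. Whether the counting used the strand is not given in the sources used here, and without it reads over such a stretch could not be told apart. Glt8d2 had 86, 47, 96 and 51 counts in KO and 75, 96, 57 and 52 in WT, with overlapping ranges. The genotypes differed by a log2 fold change of 0.07 (SE 0.18), and its adjusted p was 0.911 in edgeR.

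The other glycosylases that remove uracil or mismatched thymine did not pass the test. Of the 8 members named for their function, 0 were past the adjusted threshold, with 0.411 as their lowest adjusted p in edgeR, and none had genotypes without overlap in CPM, against 2.40% of all tested genes. At an unadjusted p under 0.05 were Ung and Neil1, both higher in KO, against 10.6% of all tested genes, 4.87% higher and 5.75% lower. That count of 2 was 0 in 13 of the 20 alternatives, among them the fits without a surrogate variable, with lane as a term and with DESeq2, where 2.52%, 2.94% and 9.60% of all genes had such a p. It was 3 without WT3, where 15.6% did. By the fitted fold change 4 of the 8 were lower in KO, against 46.2% of all tested genes. Their median log2 fold change was 0.07 and that of all tested genes 0.015.

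Ung, the main uracil DNA glycosylase, removes uracil that is built in during replication or arises from cytosine. It had 1.44, 2.08, 2.44 and 2.05 CPM in KO and 0.992, 1.73, 1.80 and 1.42 CPM in WT. WT1 was the lowest and the KO libraries other than KO1 were above all WT libraries. The log2 fold change was 0.42 (SE 0.16), with an unadjusted p of 0.0260 and an adjusted p of 0.411 in edgeR, and it was 0.30 within lane A and 0.44 within lane B.

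Smug1, which removes uracil and 5-hydroxymethyluracil, had 32.6, 31.3, 32.2 and 34.9 CPM in KO and 27.5, 27.04, 32.6 and 29.6 CPM in WT. Only WT3 reached the KO range. The log2 fold change was 0.14 (SE 0.072), with an adjusted p of 0.539 in edgeR. Mbd4, which acts on the same G:T mismatches at methylated CpG sites as TDG, ranged from 13.2 to 15.8 CPM over the KO libraries and from 12.9 to 15.5 CPM over the WT ones. The log2 fold change was −0.05 (SE 0.076), with an adjusted p of 0.849 in edgeR. Mbd4 varied least among the members, 1.23 times from the lowest library to the highest, and Smug1 was next with 1.29 times.

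The glycosylases for oxidised bases overlapped between genotypes. Ogg1 removes 8-oxoguanine, and MUTYH removes the adenine that is paired with it. Ogg1 had 3.13, 5.52, 6.10 and 6.97 CPM in KO and 3.30, 5.47, 6.92 and 7.13 CPM in WT, and KO1 and WT1 were the lowest of their genotype. Its log2 fold change was −0.07 (SE 0.12), with an adjusted p of 0.868 in edgeR. Mutyh ranged from 2.07 to 3.46 CPM over the KO libraries and from 1.504 to 3.08 CPM over the WT ones, with a log2 fold change of 0.14 (SE 0.17) and an adjusted p of 0.793 in edgeR. For Mutyh the direction was not the same on both lanes, with 0.42 within lane A and −0.16 within lane B. Leaving out 1 library gave 0.045 to 0.21 for Mutyh, the least without WT3.

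Neil1 and Nthl1 encode glycosylases that remove oxidised pyrimidines and also cut the strand. Neil1 had 9.08, 12.95, 13.6 and 13.5 CPM in KO and 6.63, 11.99, 13.01 and 11.1 CPM in WT. KO1 and WT1 were again the lowest of each genotype, and the ranges overlapped. The log2 fold change was 0.21 (SE 0.086), with an unadjusted p of 0.0350 and an adjusted p of 0.445 in edgeR, and 0.20 and 0.13 within lanes A and B. Nthl1 had 1.15, 2.80, 2.24 and 2.87 CPM in KO and 0.736, 2.62, 4.30 and 2.82 CPM in WT, a 5.84-fold range from WT1 to WT3 and the widest among the members with counts in every library. Its log2 fold change was −0.06 (SE 0.19), with an adjusted p of 0.932 in edgeR, and it was −0.33 within lane A, −0.18 within lane B and −0.25 without a surrogate variable.

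Mpg encodes the glycosylase that removes alkylated purines such as 3-methyladenine. It had 7.70, 10.2, 11.3 and 11.9 CPM in KO and 7.04, 10.01, 14.1 and 10.1 CPM in WT. KO1 and WT1 were the lowest here too, and WT3 was the highest. The log2 fold change was −0.0017 (SE 0.096), with an adjusted p of 0.996 in edgeR, so the difference was far below its error. In all, KO1 and WT1 were the lowest library of their genotype for Ung, Mutyh, Ogg1, Neil1, Nthl1 and Mpg, and they were also the pair that stood apart on the first principal component. The part of that difference between libraries in these values was not tested beyond the surrogate variable in the fit, which was −0.558 and −0.621 in KO1 and WT1 and 0.0480 to 0.392 in the others.

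Neil2 and Neil3, glycosylases that act on bubbles and on single strands, had on average the fewest counts per exon length among the glycosylase genes with counts in both genotypes. Tdg-ps was left out of that order. Neil2 had 14, 21, 30 and 24 counts in KO and 29, 33, 75 and 31 in WT, or 0.402 to 0.607 CPM for KO and 0.491 to 1.57 CPM for WT. WT3 was the highest by far. The log2 fold change was −0.80 (SE 0.34), with an unadjusted p of 0.0389 and an adjusted p of 0.449 in edgeR, and it was −1.34 within lane A, which holds WT3, −0.17 within lane B, −0.43 without WT3 and −0.49 without WT1. Neil3, which is known from dividing cells, ranged from 2.11 to 2.47 CPM over the KO libraries and from 0.587 to 2.40 CPM over the WT ones, with WT3 the lowest. Its log2 fold change was 0.42 (SE 0.31) and its adjusted p 0.646 in edgeR, with 0.62 within lane A, 0.16 within lane B and 0.12 without WT3.

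**Figure D4:**
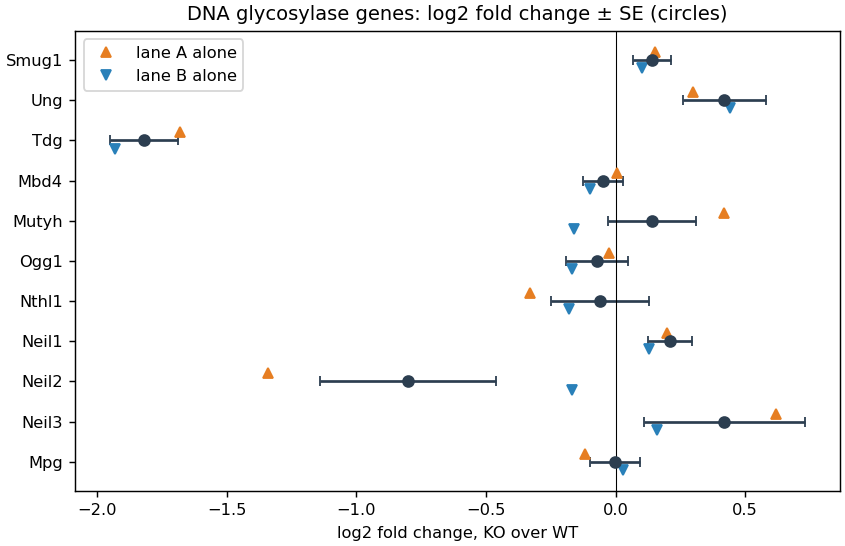
Log2 fold change, KO over WT (x axis), of the 11 glycosylase genes with counts in both genotypes, as circles with bars for the SE, and the values within lane A (triangles up) and lane B (triangles down). Tdg lies at −1.82, and the others lie between −0.80 for Neil2 and 0.42 for Ung and Neil3. Tdg-ps2, with no counts in WT, and Tdg-ps, which did not pass the filter, are left out.

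Levels were compared between genes per kilobase of exon, with exon lengths from GENCODE M1 and not from the annotation used for counting. In WT the order of the mean CPM per kilobase was Smug1 (9.03 ± 0.793, SD, n = 4), Neil1 (6.33 ± 1.67), Mbd4 (2.82 ± 0.217), Ogg1, Mpg, Nthl1, Tdg (1.56 ± 0.0990), Mutyh, Ung, Neil2 and Neil3 (0.326 ± 0.150). Smug1 and Neil1 stood above the next gene without overlap between libraries, and so did Tdg above Mutyh, whereas Mbd4, Ogg1, Mpg and Nthl1 overlapped with their neighbours, as did Nthl1 with Tdg and the genes from Mutyh to Neil3. In KO, Tdg had 0.458 ± 0.0725 CPM per kilobase, between the means of Ung and Neil3 and overlapping with both, and Tdg-ps2 had 5.82 ± 1.35. The latter rests on an exon length of 1242 bases, less than the 2916 aligned bases of the copy, so Tdg-ps2 is not ranked against the other genes in KO. The levels of Tdg and its copies are lowered by the discarding of reads with several alignments and cannot be set against genes without copies as amounts of RNA.

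**Figure D5:**
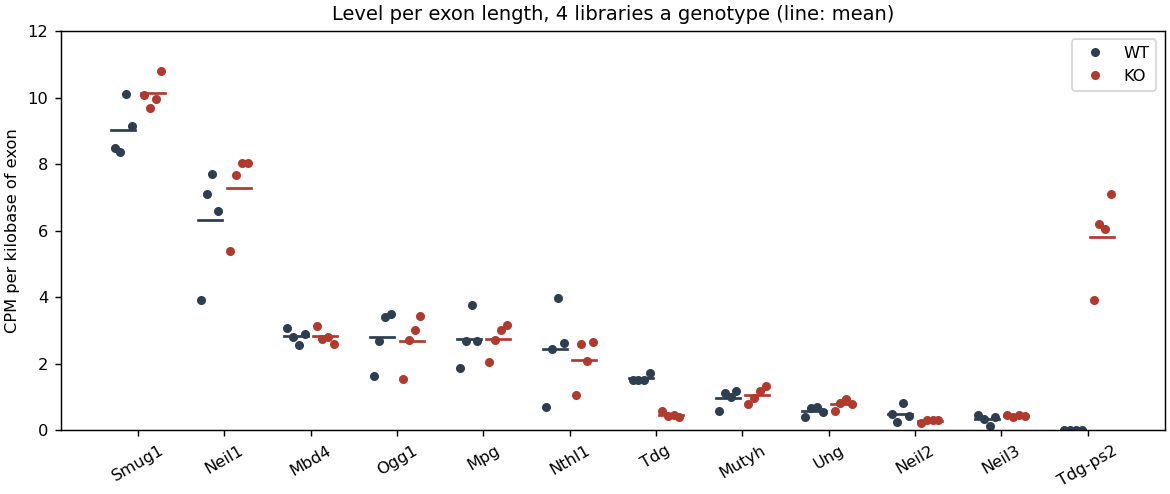
CPM per kilobase of exon (y axis) of the 12 genes in the order of their WT mean, with 1 point a library in WT and KO and a line at the mean of 4. Smug1 is the highest in both genotypes, Tdg has a mean of 1.56 in WT and 0.458 in KO, and Tdg-ps2, whose exon length is uncertain, 0 and 5.82.

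The upstream windows of Tdg and Tdg-ps are printed to describe the sequence around their starts, and transcription from either start was not tested. Each holds the 250 bases before the start that RefSeq's promoter entry uses (GRCm38.p6, plus strand). For Tdg that start lies inside the annotated gene, so that the last 24 bases of the window, with the last 2 of the marked CACGTG, belong to the gene. The capitals mark matches to TGACGTCA, a CRE sequence, CACGTG, an E-box, and CCAAT on either strand (ATTGG). Entries were found for 9 of the 10 members and for Tdg-ps and Neil3.
Tdg chr10:82629588-82629837: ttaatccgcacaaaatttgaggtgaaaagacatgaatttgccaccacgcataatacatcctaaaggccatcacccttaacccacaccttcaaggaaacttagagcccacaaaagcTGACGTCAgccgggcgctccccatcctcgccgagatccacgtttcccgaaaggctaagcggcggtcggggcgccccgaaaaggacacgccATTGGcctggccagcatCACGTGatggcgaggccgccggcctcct
Tdg-ps chr15:82516045-82516294: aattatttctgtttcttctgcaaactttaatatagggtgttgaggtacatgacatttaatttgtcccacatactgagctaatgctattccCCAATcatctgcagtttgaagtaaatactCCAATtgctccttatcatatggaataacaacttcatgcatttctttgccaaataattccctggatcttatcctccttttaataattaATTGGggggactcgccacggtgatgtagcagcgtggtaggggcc

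The Tdg window held 19 CpG sites and 56.8% G and C, and the Tdg-ps window 3 and 38.8%, against medians of 6 and 52.4% over 32851 such windows. TGACGTCA was in 1.55% of all windows and CACGTG in 6.02%, and among the windows of the members only that of Tdg held either. CCAAT on either strand was in 33.8% of all windows. A match of letters is a description and no site of binding.

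Base excision repair after the glycosylase step was followed in 18 genes, all tested, which cover the endonucleases, polymerases, ligases and their helpers. None passed the adjusted threshold in edgeR, 1 was higher at an unadjusted p under 0.05 and 0 were lower, near the shares of all tested genes (4.87% and 5.75%), and the median log2 fold change was 0.06. Apex1, which encodes the main endonuclease at the site the glycosylase leaves, had a log2 fold change of 0.16 (SE 0.068), with an unadjusted p of 0.0473 and an adjusted p of 0.468 in edgeR. The next by p were Nudt1, which clears oxidised nucleotides, with 0.21, Pcna, the replication clamp, with 0.15, and Hmgb1 with 0.16. On lane B alone Apex1 was 0.044, Nudt1 0.12, Pcna 0.0035 and Hmgb1 0.053, on lane A alone they were 0.24, 0.23, 0.28 and 0.24, and without KO4 Hmgb1 was 0.084, Pcna 0.097 and Apex1 0.11.

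Of 20 genes of DNA methylation and demethylation, the pathway in which TDG acts downstream of the TET enzymes, 18 were tested and none passed the adjusted threshold, with a median of 0.01. At an unadjusted p under 0.05, 1 was higher and 1 was lower in edgeR, near the 4.87% and 5.75% of all tested genes. Tet1, which oxidises 5-methylcytosine, had a log2 fold change of −0.17 (SE 0.062), with an adjusted p of 0.390 in edgeR. Uhrf1, which guides maintenance methylation at replication, had 0.51 (SE 0.21), with an adjusted p of 0.449 in edgeR, and 0.97 within lane A, 0.15 within lane B and 0.32 without WT3. Cxxc5 had 0.22 and Gadd45b −0.38.

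Of 18 genes of TDG's partners and of the SUMO pathway, which modifies TDG and helps it to leave DNA, none passed the adjusted threshold, 1 was higher at an unadjusted p under 0.05 in edgeR (4.87% of all tested genes were), 1 had genotypes without overlap (2.40% of all tested genes did), and the median log2 fold change was 0.03. Sae1, a subunit of the enzyme that activates SUMO, lay between 95.7 and 107.8 CPM with KO and between 81.8 and 92.5 CPM with WT, without overlap. Its log2 fold change was 0.16 (SE 0.062) and its adjusted p 0.424 in edgeR. Sumo3 had 0.20, Dtl, part of a ligase that marks TDG for destruction in S phase, 0.35, and Senp1, a SUMO protease, 0.12. Dtl was 0.64 within lane A, 0.088 within lane B, 0.20 without WT3 and 0.21 without WT1.

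Proliferation genes had, as Ung and Neil3 did, fold changes above 0. All 14 were higher in KO by the fitted fold change, whereas 46.2% of all tested genes were lower. At an unadjusted p under 0.05, 9 were higher, against 4.87% of all tested genes, and 0 passed the adjusted threshold in edgeR. The median log2 fold change was 0.38, with 0.65 in the libraries of lane A and 0.14 in those of lane B. Summed CPM ranged from 292.9 to 418.8 in KO, and it was 306.7, 243.8, 135.0 and 278.0 in WT1 to WT4, so that WT3 was the lowest, as it was for 11 of the 14 genes. Without WT3, 13 were higher, 8 of them at an unadjusted p under 0.05, against 6.93% of all genes in that fit, with a median of 0.24. The count was 0 without WT1 (2.46% of all genes in that fit), on lane B alone (5.60%) and when the strain label was in the model (0.479%). It was 2 on lane A alone (0.129%), 2 without a surrogate variable (0.867%), 3 with lane as a term (1.19%) and 3 without KO4 (4.47%). Ccnb1 had 0.65, Aurkb 0.66, Mcm5 0.50 and Mcm3 0.38, with a lowest adjusted p of 0.360 in edgeR for Ccnb1. Within lane A these were 0.94, 1.22, 0.87 and 0.68, and within lane B 0.33, 0.21, 0.17 and 0.12. Their part in the values of Ung and Neil3 was not tested. In bulk RNA more cells of a kind and more RNA per cell cannot be told apart.

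The labelled cell type matched its markers, since all 15 neuron markers were tested and their summed level reached 7426 to 8545 CPM with KO and 7353 to 8542 CPM with WT, with Slc17a7, Syt1, Map2 and Stmn2 between −0.32 and 0.11 in log2 fold change. Other cell types were also present. Summed astrocyte markers were 837.9 to 1663 CPM in KO and 879.3 to 1502 in WT, with Gfap at 1.94 (SE 1.1) and Fgfr3 at −0.18. Microglia markers were 3.58 to 43.0 CPM in KO and 4.19 to 18.1 in WT, with at most 3 counts of Tmem119 in any library. By the fitted fold change 7 of 8 tested were higher in KO, whereas 46.2% of all tested genes were lower. The median of these 8 was 1.36, and 0 of them had an unadjusted p under 0.05 in edgeR. Oligodendrocyte lineage markers summed to 508.6 to 611.3 CPM in KO and 485.6 to 591.6 in WT, interneuron markers to 208.2 to 346.3 and 189.7 to 307.4, and progenitor markers to 840.4 to 1094 and 841.3 to 1031. Endothelial and fibroblast markers summed to 11.3 to 21.4 CPM in KO and 6.36 to 34.3 in WT, with at most 3 counts of Cldn5 in any library. None of these genes passed the adjusted threshold in edgeR. Among the neuron markers, Slc17a7 alone was past an unadjusted p under 0.05, and it was lower in KO. The part of these cells in the values of the glycosylases was not tested.

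The tested genes with the pattern most like that of Tdg were found by the root mean square difference of log2(CPM + 0.5), centred for each gene, over the 8 libraries. They were ENSMUSG00000094622 (0.189, with 5 to 10 counts in KO and 34 to 79 in WT), 1190007I07Rik, which encodes the mitochondrial peptide Brawnin (0.30, with 35 to 57 and 107 to 213 counts), and ENSMUSG00000112640 (0.353, with 0 and 17 to 32 counts). For Tdg-ps2 no gene came near, and the closest were Capn11 at 1.54, Chi3l1 at 1.58 and ENSMUSG00000097461 at 1.6. Tdg and Tdg-ps2 were chosen for their difference between genotypes in these libraries. The search therefore favours rows with a like difference, and the genes it names are a description with no test.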

How the data were processed

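Poly-A RNA of 4 KO and 4 WT cultures was sequenced. The authors deposited unnormalised counts of reads for each Ensembl gene, which they obtained with Cutadapt 1.10, removal of ribosomal reads, STAR 2.5.3a on mm10 and HTSeq-count 0.6.1p1 in union mode on uniquely aligned reads. Discarding reads with several alignments lowers the counts of Tdg and its copies. The authors did not pool replicates.

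The genotype term was tested with edgeR 4.0.16 in R 4.3.3 (filterByExpr, TMM, robust quasi-likelihood F test), with 1 surrogate variable beside it (svaseq, sva 3.50.0), BH-adjusted over all 16272 tested genes at 0.05. SE is the absolute log2 fold change divided by the square root of F. CPM used library totals (median 39224504). Floors of 3 counts and intervals cover counting error only. The edgeR fit without a surrogate variable was run on simulated counts, and the surrogate variable step was not tested that way. BLAST hits on NCBIM37 of at least 150 bases and 80% identity were kept, and Gm5806 was taken as Tdg-ps because its sequence holds the RefSeq start. No library duplicated another (chi-square over degrees of freedom at least 18.8).

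The members and lists were chosen with earlier results of these data known. Named were all members, Tdg-ps, Neil2, Neil3, Nuak1, genes overlapping Tdg, the 4 genes of smallest p in each pathway list and the 3 genes nearest in pattern to Tdg and to Tdg-ps2. Markers are given mainly as sums. Alternatives covered surrogate variables, lane, strain label, replicate number, size factors, filters, DESeq2 1.42.0, limma-voom (limma 3.58.1), each lane alone and each library left out.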

Additional observations from a re-analysis of the deposited data

Results flagged for a closer look

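Among 28 groups of 4 values, in which chance would flag about 1.4, 5 had 1 library far from the other 3. In WT4, Tdg had 9.16 CPM, while WT1, WT2 and WT3 had 8.06 to 8.16, and the sum of Tdg, Tdg-ps2 and Tdg-ps was 9.40 CPM, against 8.28 to 8.32 CPM. These values share the same reads. In KO1, Neil1 had 9.08 CPM, while the other KO libraries had 12.95 to 13.6, and Neil2 had 0.402 CPM, against 0.576 to 0.607 CPM. Tdg-ps had 0.0192 CPM in KO3, which is 1 count, and 0 in the other KO libraries.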

How the results depend on the processing

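Of all tested genes 8 passed the adjusted threshold, 4 without a surrogate variable, with 2 of them or with lane as a term, 1 with the strain label as a term, 3 with the replicate number as a block, 45 without a filter, 185 with DESeq2, 99 on lane B alone and 0 on lane A alone, where 96 had an unadjusted p under 0.05. Leaving out 1 library gave 3 to 91, the most without WT3 and 3 without KO3, WT1 or WT2. Of the members 2 passed it, Tdg and Tdg-ps2, which were chosen on that difference, and 0 with the strain label term or on lane A alone. With the replicate block the count of members was 2, and the numbers did not pair the libraries (correlations of 0.800, 0.0122, 0.249 and 0.00225 for replicates 1 to 4, with 2 of 8 libraries closest to their own number). None of the other 8 members passed it in any of the 20 alternatives that gave it an adjusted p, and DESeq2 gave none for Ung, Mutyh and Nthl1. The log2 ratio of the summed rows ranged from 0.11 to 0.26 over 12 alternatives.

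Small fold changes changed sign. On lane A alone Mbd4 was 0.0046. On lane B alone Mutyh was −0.16 and Mpg 0.027. With the strain label, Ogg1 was 0.14, Nthl1 0.063, Mpg 0.23, Glt8d2 −0.17 and Gadd45b 0.017. With 2 surrogate variables Mpg was 0.076. Leaving out a library gave −0.062 to 0.16 for Glt8d2, −0.038 to 0.077 for Mpg, −0.17 to 0.084 for Nthl1 and −0.14 to 0.018 for Ogg1. Nuak1 lost its call on lane A alone (−4.81, adjusted p 0.849 in edgeR). The cause was not tested. Lanes alone have 2 libraries a genotype.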
